A study of Mus musculus with 49 samples.

Results

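The genes described are those that set whether a cell passes from the G1 phase into DNA synthesis: the D cyclins Ccnd2 and Ccnd3, their kinase Cdk4, the inhibitors Cdkn1a and Cdkn1b, the retinoblastoma gene Rb1, and the growth regulators Myc and Mycn. They were chosen by name from a list of 9 genes, and 8 of the 9 were among the 13093 genes of the expression table; Cdk6 was not analysed here. RNA was measured in 49 individual cells of the metanephric mesenchyme, the embryonic tissue that gives rise to the nephrons and the stroma of the kidney, at 11.5 days post coitum (Theiler stage 19). All embryos carried the transgene Tg(Crym-EGFP)82Gsat, in which Crym regulatory sequence drives a green fluorescent protein, on a mixed background and in both sexes, and the dissection was guided by that fluorescence and reached slightly past its edge. Because no embryo or litter is named, all 49 cells are taken as 1 sample. Cells are not replicates of a condition, and levels are therefore described without p-values.

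D cyclins bind the kinases encoded by Cdk4 and Cdk6, and the complexes phosphorylate the retinoblastoma protein, which then releases E2F transcription factors that turn on genes of DNA synthesis. Cdkn1a (p21), Cdkn1b (p27) and Cdkn1c (p57) encode proteins of 1 family that bind cyclin and kinase complexes and hold back the cycle. Myc and Mycn encode related transcription factors that bind DNA with the partner protein Max and raise genes of ribosome production and growth, and Mycn is known to be needed in the embryo for a kidney of normal size.

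Levels are in RPKM, which corrects a read count for gene length and for the number of reads mapped in that cell, so they can be compared between genes. A gene counted as detected in a cell at 1 RPKM or more. A median of 5210 genes was detected per cell, from 3610 to 6510. The smallest value above 0 lay between 0.000254 and 0.00419 RPKM in 47 cells, and was 0.0141 in cell 3 and 0.0220 in cell 7, so the values of these 2 cells rest on fewer reads. A 0 is not proof of absence in single cells: the housekeeping genes Hprt and Tbp were listed at 0 in 6 and 19 cells. The tissue label was checked on marker genes: 47 cells had at least 3 of 15 nephron progenitor markers and 43 had at least 3 of 17 stroma markers. Cell 25 had 12 of 13 ureteric bud markers and cell 27 had 8 of 8 endothelial markers that were in the table. Cell 27 also had 2 of 3 macrophage markers, and cell 7 alone had 3 of 3 neural markers. These cells were kept.

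The 8 genes spanned the whole scale, from a kinase present at high level in every cell to an inhibitor found in a single cell. A cell had between 2 and 7 of the 8 genes, with a median of 4. Of all genes analysed, 557 (4.25%) were detected in every cell, 2010 (15.4%) in 40 or more cells, and the median gene was detected in 16 cells. Cdk4 belonged to the first class, Ccnd2 to the second, Ccnd3, Myc, Mycn and Cdkn1b were found in more cells than the median gene, and Rb1 and Cdkn1a in fewer.

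**Figure D1:**
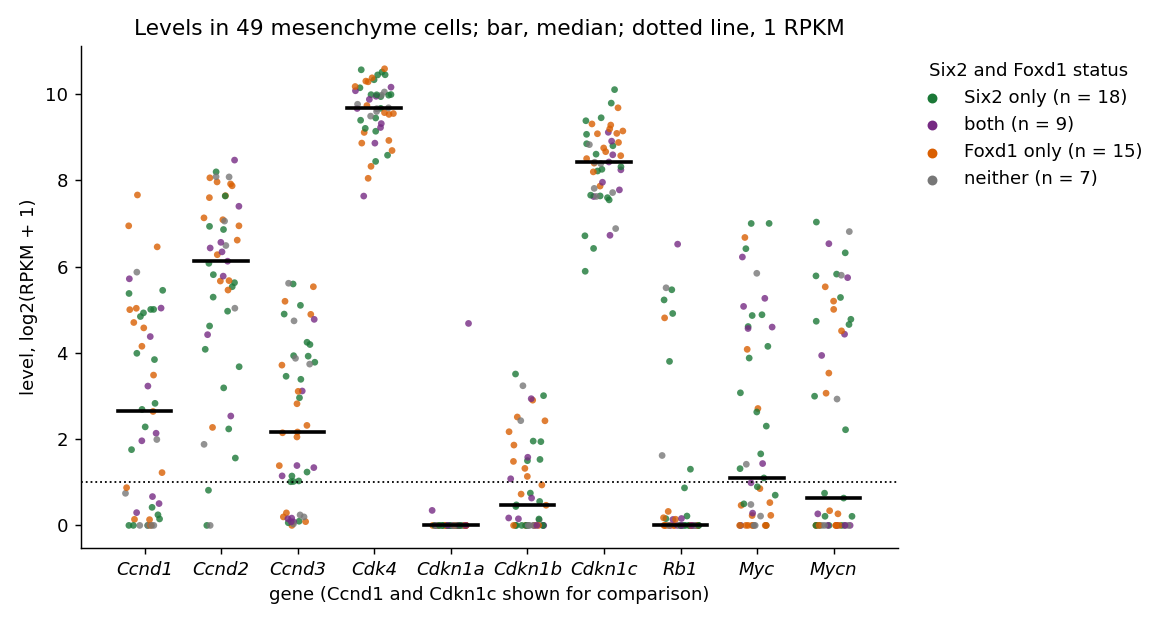
RPKM of the 8 genes, and of their relatives Ccnd1 and Cdkn1c, on a log2(RPKM + 1) axis. Each point is 1 of 49 cells, coloured by its Six2 and Foxd1 status, and the bar is the median: Cdk4 and Cdkn1c lie in narrow high bands, Ccnd2 spreads downward from a high band, and Myc, Mycn and Rb1 have many cells at or near 0 and a spread of cells above the dotted line at 1 RPKM.

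Cdk4, the catalytic partner of the D cyclins (gene ID 12567; chromosome 10, 126500659 to 126504338 in mm9), was detected in 49 of 49 cells (100%, exact 95% binomial interval 92.7 to 100%; intervals here cover counting error only). Its level ran from 198 RPKM in cell 3 to 1540 RPKM in cell 43, with a median of 822 RPKM. Without cells 3 and 7 the lowest value was 264 RPKM. It was the most even of the 8 genes, with an SD of 347 RPKM around a mean of 865 RPKM, and its lowest value was above the highest value of every other member except Ccnd2.

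The sequence before the start site of Cdk4 is shown because it holds several copies of the E-box that Myc and Max bind. In the 250 bases before the annotated start (RefSeq, GRCm38.p6, chr10:127063285-127063534, plus strand), CACGTG, which reads alike on both strands, occurs 4 times, with first bases 172, 118, 98 and 11 bases before the start. Capitals mark these copies:
Cdk4: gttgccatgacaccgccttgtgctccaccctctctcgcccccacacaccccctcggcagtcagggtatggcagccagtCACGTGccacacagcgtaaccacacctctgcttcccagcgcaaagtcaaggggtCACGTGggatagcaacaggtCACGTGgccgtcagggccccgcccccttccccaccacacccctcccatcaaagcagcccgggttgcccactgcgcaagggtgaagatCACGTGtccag
Of 32851 windows of the same length before annotated mouse starts, 6.02% hold at least 1 CACGTG and 7 windows (0.0213%) hold 4 or more. A match describes letters and not a bound site. Across the 49 cells the level of Cdk4 moved little with that of either factor, with a Spearman correlation of 0.11 with Myc and 0.040 with Mycn. The build of this window differs from that of the expression table, and its coordinates cannot be set beside the gene positions given in mm9. Windows were found for 5 of the 8 genes, and the choice of the Cdk4 and Mycn windows for display was made after their matches were seen.

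Ccnd2, which encodes cyclin D2 (gene ID 12444; chromosome 6, 127075727 to 127101066), was detected in 46 cells (93.9%, interval 83.1 to 98.7%). Its values ran from 0 to 354 RPKM in cell 19, with a median of 68.9 RPKM. Ccnd3, which encodes cyclin D3 (gene ID 12445; chromosome 17, 47642000 to 47736637), was detected in 36 cells (73.5%, interval 58.9 to 85.1%). It was far lower, with a median of 3.49 RPKM and a maximum of 48.0 RPKM in cell 32, and 12 further cells had a value above 0 but under 1 RPKM. The relative Ccnd1, which encodes cyclin D1, was detected in 31 cells (63.3%) with a median of 5.24 RPKM and a maximum of 202 RPKM in cell 25, the cell with ureteric bud markers.

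Ccnd2 was thus the main D cyclin transcript of these cells. It was the highest of the D cyclin genes in 37 cells, against 6 for Ccnd3 and 5 for Ccnd1, and its median share of the summed RPKM of the D cyclin genes was 79.1%, against 5.28% for Ccnd1 and 4.01% for Ccnd3. All 3 genes were detected in 23 cells, 2 of them in 19, 1 in 6, and none in cell 39. Ccnd1 and Ccnd2 moved together in part, with a Spearman correlation of 0.41 over 49 cells and 0.44 without cells 3 and 7. Ccnd3 followed neither, at 0.12 with Ccnd2 and 0.094 with Ccnd1.

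In 9 cells (4, 6, 7, 15, 16, 20, 27, 33 and 39) Ccnd2 was under 10 RPKM. Cell 39, with no D cyclin gene at 1 RPKM, had all genes of a list of 38 genes of G2 and mitosis, Cdk4 at 811 RPKM and Mycn at 54.8 RPKM. Cells 33 and 20, with Ccnd2 at 0 and 0.76 RPKM, had Ccnd3 at 33.4 and 6.78 RPKM and also stood among the cells with the most mitotic transcripts, with 37 and 35 of the 38 genes. These 3 cells are all the cells in which Ccnd2 was not detected, and they were singled out after their values were seen.

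The inhibitors were sparse apart from Cdkn1c. Cdkn1a (gene ID 12575; chromosome 17, 29227931 to 29237667), a target of p53, was detected in 1 cell, cell 19, at 24.7 RPKM (2.04% of cells, interval 0.0517 to 10.9%). Cell 31 had 0.273 RPKM and the other 47 cells were listed at 0. Cell 19 was also the cell with the most Ccnd2. Of 11 p53-related genes in the table, Trp53 included, it had 6, against a median of 4 per cell. It also had 6171 genes detected, against a median of 5210, and the part of this in the count was not tested. Btg2, Phlda3 and Sesn2 were at 0 in cell 19, and Ccng1 and Zmat3 were at 0.280 and 0.251 RPKM. Among the 6 were Mdm2, the ubiquitin ligase that restrains p53, at 45.0 RPKM against a median of 5.02 over all cells, and the nuclease gene Aen at 28.9 RPKM against a median of 0. Mdm2 was higher still in 8 other cells and Aen in 6, so cell 19 was not extreme in either.

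Cdkn1b (gene ID 12576; chromosome 6, 134870419 to 134875543) was detected in 19 cells (38.8%, interval 25.2 to 53.8%). Its median was 0.391 RPKM and its maximum 10.4 RPKM, in cell 33. No other cell reached 10 RPKM, so its cells lie close to the limit of 1 RPKM: 30 cells passed 0.1 RPKM and 5 passed 5 RPKM. Cdkn1c, given beside them as the third gene of the family, was detected in 49 cells, from 58.5 to 1101 RPKM with a median of 343 RPKM. Cdkn1c was above Ccnd2 in 44 cells and below Cdk4 in 42.

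Rb1, the pocket protein gene on which the D cyclin kinases act (gene ID 19645; chromosome 14, 73595309 to 73725598), was detected in 9 cells (18.4%, interval 8.76 to 32.0%). Its values were 90.9 RPKM in cell 15, 44.6 in cell 32, 43.2 in cell 23, 36.5 in cell 12, 29.2 in cell 6, 27.1 in cell 11, 13.0 in cell 33, 2.08 in cell 39 and 1.47 in cell 13, while 32 cells were listed at 0 and 8 had values above 0 and up to 0.828 RPKM. Of the other pocket protein genes, Rbl1 was found in 16 cells, as many as the median gene, and Rbl2 in 6. At least 1 of the 3 genes was found in 22 cells. Mycn was detected in 7 of the 9 Rb1 cells, where independent detection would give 4.22, and the Spearman correlation of Rb1 and Mycn was 0.37 over 49 cells. The libraries keep no strand and the sources used here do not say how reads in overlapping genes were counted, so the values of 2 members are uncertain. Rb1 contains Lpar6 (chromosome 14, 73637698 to 73640165) and shares 12342 bases with Rcbtb2, and Ccnd3 shares 358 bases with Bysl. The Spearman correlation with the member was -0.12 for Lpar6, -0.10 for Rcbtb2 and -0.16 for Bysl, over many ties at 0 in the case of Rb1. Lpar6 had a median of 9.21 RPKM in the 9 Rb1 cells, among them 201 in cell 11 and 73.7 in cell 12, against 6.13 RPKM in the 40 other cells, so shared reads in these cells cannot be told apart.

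Myc (gene ID 17869; chromosome 15, 61816896 to 61821916) was detected in 25 cells (51.0%, interval 36.3 to 65.6%), from 0 to 127 RPKM in cells 29 and 26, with a median of 1.14 RPKM. Mycn (gene ID 18109; chromosome 12, 12942899 to 12948642) was detected in 23 cells (46.9%, interval 32.5 to 61.7%), from 0 to 130 RPKM in cell 36, with a median of 0.551 RPKM. Where detected, the medians were 22.7 RPKM for Myc and 31.2 RPKM for Mycn. Neither stood above the other as a rule: Mycn was higher in 20 cells and Myc in 23.

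At 1 RPKM the 2 Myc genes were found together about as often as independent detection would give. Both were detected in 12 cells, against 11.7 if detection of the one did not depend on the other, Myc alone in 13, Mycn alone in 11 and neither in 13. The Spearman correlation of their levels was 0.19. At 10 RPKM both were present in 9 cells, against 6.2 if independent, Myc alone in 7, Mycn alone in 10 and neither in 23. Their partner gene Max was detected in 8 cells, and other genes of the network were more widespread, with Ruvbl1 in 49, Mga in 45, Ruvbl2 in 42 and Trrap in 38.

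The order of levels by mean RPKM was Cdk4, Cdkn1c, Ccnd2, Ccnd1, Mycn, Myc, Ccnd3, Rb1, Cdkn1b and Cdkn1a. The first steps held in most cells, with Ccnd2 above Ccnd1 in 41 of 49. The neighbours from Ccnd1 to Ccnd3 were not separated beyond the spread of the cells: Ccnd1 was above Mycn in 30 cells and below it in 17, and Myc was above Ccnd3 in 22 and below it in 26. Ccnd3 was above Rb1 in 39 cells. Cdkn1b was above Rb1 in 25 cells and below it in 11, although the mean of Rb1 was higher.

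Levels were next compared between cells with Six2, a homeobox gene that keeps nephron progenitors undifferentiated, and cells with Foxd1, a forkhead gene of the kidney stroma. At 1 RPKM 18 cells had Six2 only, 15 had Foxd1 only, 9 had both and 7 had neither. Foxd1 reached at most 0.752 RPKM in the Six2-only cells, and Six2 at most 0.238 RPKM in the Foxd1-only cells. A gene counted as past 2-fold where the means of log2(RPKM + 1) differed by 1 or more. This held for 3 members, with Myc and Mycn higher in the Six2-only cells and Ccnd2 higher in the Foxd1-only cells. Of all 13093 genes, 8.75% were past 2-fold toward Six2-only and 7.78% toward Foxd1-only cells.

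Myc was detected in 14 of 18 Six2-only cells and in 3 of 15 Foxd1-only cells. Its level in the Six2-only cells ran from 0 to 127 RPKM with a median of 6.31 RPKM, and in the Foxd1-only cells from 0 to 101 RPKM with a median of 0.172 RPKM. The ranges overlapped, because cell 42, a Foxd1-only cell, had the third highest value. The difference of mean log2(RPKM + 1) was 2.11, with 3.68 at a pseudocount of 0.1 and 0.83 at a pseudocount of 10 in place of 1, and 1.27 with status set at 0.1 RPKM. Of the cells with both Six2 and Foxd1, 6 of 9 had Myc, with a median of 22.7 RPKM, and of the cells with neither, 2 of 7 had it.

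Ccnd2 went the other way. Its level ran from 0 to 293 RPKM with a median of 34.3 RPKM in the Six2-only cells, and from 3.83 to 266 RPKM with a median of 135 RPKM in the Foxd1-only cells. The Six2-only cells spread over the whole range, and 14 of the 15 Foxd1-only cells were at 10 RPKM or more. The exception was cell 7, which had few reads and also 3 of 3 neural markers. The difference Six2-only minus Foxd1-only was -2.06. It shrank to -0.97, short of 2-fold, when status was set at 0.1 RPKM, which leaves 12 Six2-only and 16 Foxd1-only cells, and was -1.29 with status set at 10 RPKM. Cells with Ccnd2 under 10 RPKM numbered 5 of 18 among Six2-only cells, 1 of 9 with both genes, 1 of 15 Foxd1-only and 2 of 7 with neither. Its relative Ccnd1 leaned the same way by -0.82, with medians of 5.78 and 16.8 RPKM. The Foxd1-only cells include cell 25, which had ureteric bud markers and the highest Ccnd1, at 202 RPKM. The part of this cell in the lean of Ccnd1 was not tested.

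Mycn was detected in 10 of 18 Six2-only cells, with a median of 5.32 RPKM and a highest value of 130 RPKM, and in 6 of 15 Foxd1-only cells, with a median of 0.205 RPKM and a highest value of 45.3 RPKM. Its difference of 1.03 stood at the edge of the 2-fold limit and moved both ways with the settings. It was 0.90 without cells 3 and 7, 0.83 with status set at 10 RPKM and 0.51 with a pseudocount of 10, and it was 1.25 without cells 25 and 27, 1.71 with a pseudocount of 0.1, 1.89 with status set at 0.1 RPKM and 2.34 with medians. The difference was 0.86 for Rb1, in 5 of 18 against 1 of 15 cells, 0.44 for Ccnd3, 0.32 for Cdk4 and -0.32 for Cdkn1b, which was detected in 6 of 18 and 8 of 15 cells. Rb1 passed 2-fold with a pseudocount of 0.1, at 1.53, and with status set at 10 or 0.1 RPKM, at 1.11 and 1.08. Ccnd3 passed with medians, at 1.26, and with status set at 0.1 RPKM, at 1.12. Cdkn1a was listed at 0 in every cell of both kinds; its 1 cell had Six2 and Foxd1 together. The exact interval for 0 of 18 and 0 of 15 cells reaches 18.5% and 21.8%.

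**Figure D2:**
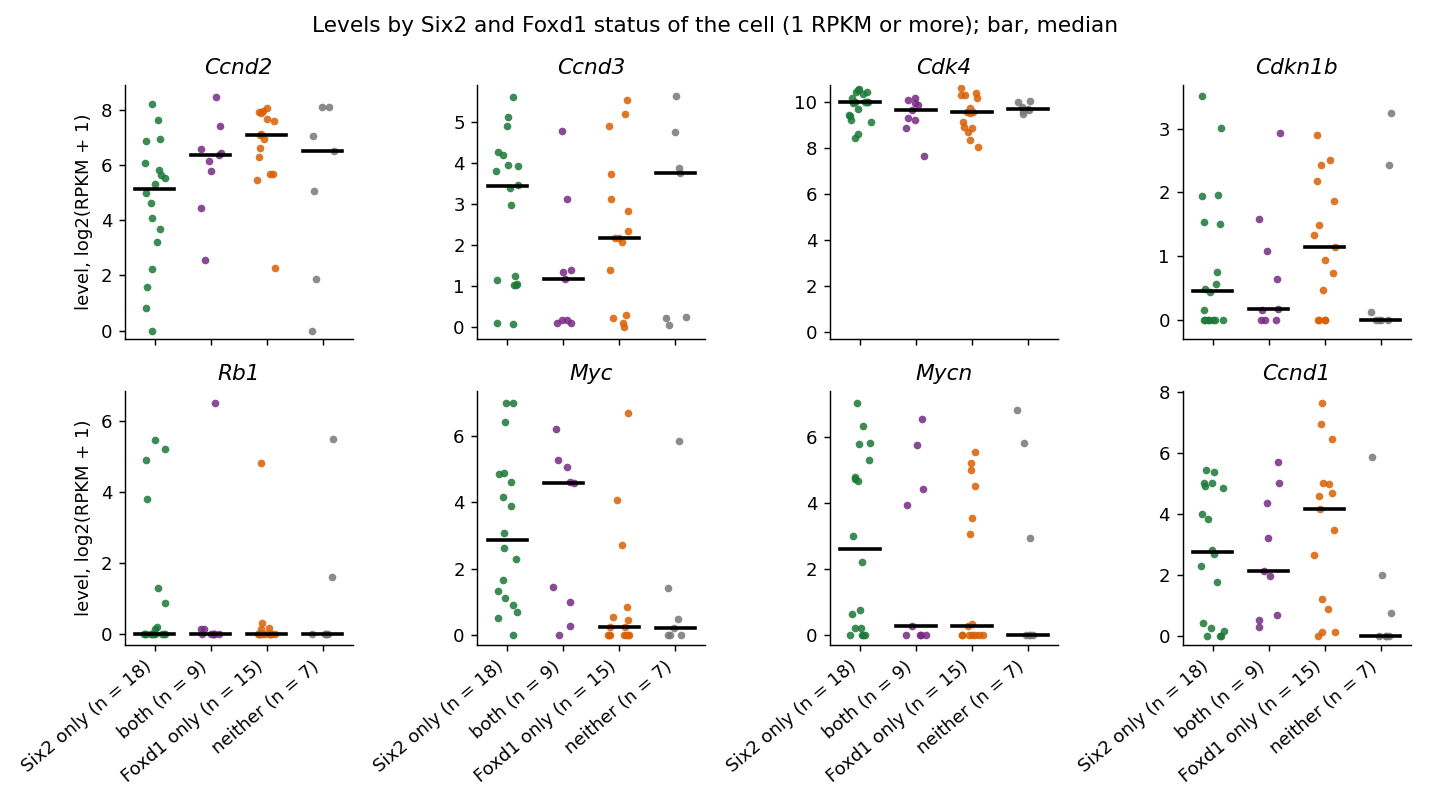
Levels of 7 of the 8 genes, and of Ccnd1, on log2(RPKM + 1) axes in cells with Six2 only, both genes, Foxd1 only or neither; each point is 1 cell, the bar is the median, and each panel has its own axis. Most Six2-only cells lie above the Foxd1-only median for Myc, most Foxd1-only cells lie above the Six2-only median for Ccnd2, and the points of all panels overlap between the kinds of cell.

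Combinations of the 2 Myc genes also differed between the kinds of cell. Among Six2-only cells 7 had both, 7 had Myc alone, 3 had Mycn alone and 1 had neither. Among Foxd1-only cells 1 had both, 2 had Myc alone, 5 had Mycn alone and 7 had neither. The median number of genes detected was 4960.5 in Six2-only and 5232 in Foxd1-only cells, and its part in the Myc difference was not tested.

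Of 18 genes known as Myc targets, 5 were past 2-fold toward the Six2-only cells and 0 toward the Foxd1-only cells. Over all genes the shares were 8.75% and 7.78%. Among genes with a mean of 5 RPKM or more, 26.4% were past 2-fold in either direction. The targets were detected in a median of 44.5 cells. The 5 targets past 2-fold were the transferrin receptor gene Tfrc at 2.24, the nucleolar genes Fbl at 2.21, Nolc1 at 1.64, Dkc1 at 1.38 and Ncl at 1.12. Among 25 genes of G1 control in the table, Ccnd1 and Cdkn1c included, 3 were past 2-fold toward Six2-only cells, the E2F genes E2f4 at 1.85, E2f3 at 1.25 and E2f6 at 1.13, and 0 toward Foxd1-only cells. Of 14 other genes of the Myc network, 0 and 1 were past 2-fold, the 1 being the Myc antagonist Mxd4 at -1.45. The counts for the G1 and network lists lie near the shares over all genes. The DNA replication genes leaned strongly to the same kind of cell, with 18 of 31 toward Six2-only and 0 toward Foxd1-only, and the median replication score, the mean log2(RPKM + 1) of the list, was 4.51 against 3.02. The Spearman correlation of Myc was 0.18 with the replication score and -0.025 with the mitotic score described next, and the part of the cycle state in the Myc difference was not tested.

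A second axis was the mitotic score of a cell, the mean log2(RPKM + 1) of 38 genes of G2 and mitosis such as Top2a, Cks2, Cdk1 and Birc5. Cells were ranked by it into 16 low cells with scores of 0.157 to 0.993, 17 middle cells with 1.10 to 3.96 and 16 high cells with 3.97 to 6.95. The score is a range and not a class: 16 cells lay within 0.5 of the lower edge and 5 within 0.5 of the upper. The number of genes detected moved with it, with medians of 4524.5, 5043 and 5885 in low, middle and high cells and a Spearman correlation of 0.63. High minus low, 2 members were past 2-fold, Mycn upward and Ccnd2 downward. Of all genes 15.3% were past 2-fold upward and 1.88% downward, and the median gene differed by 0.20.

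**Figure D3:**
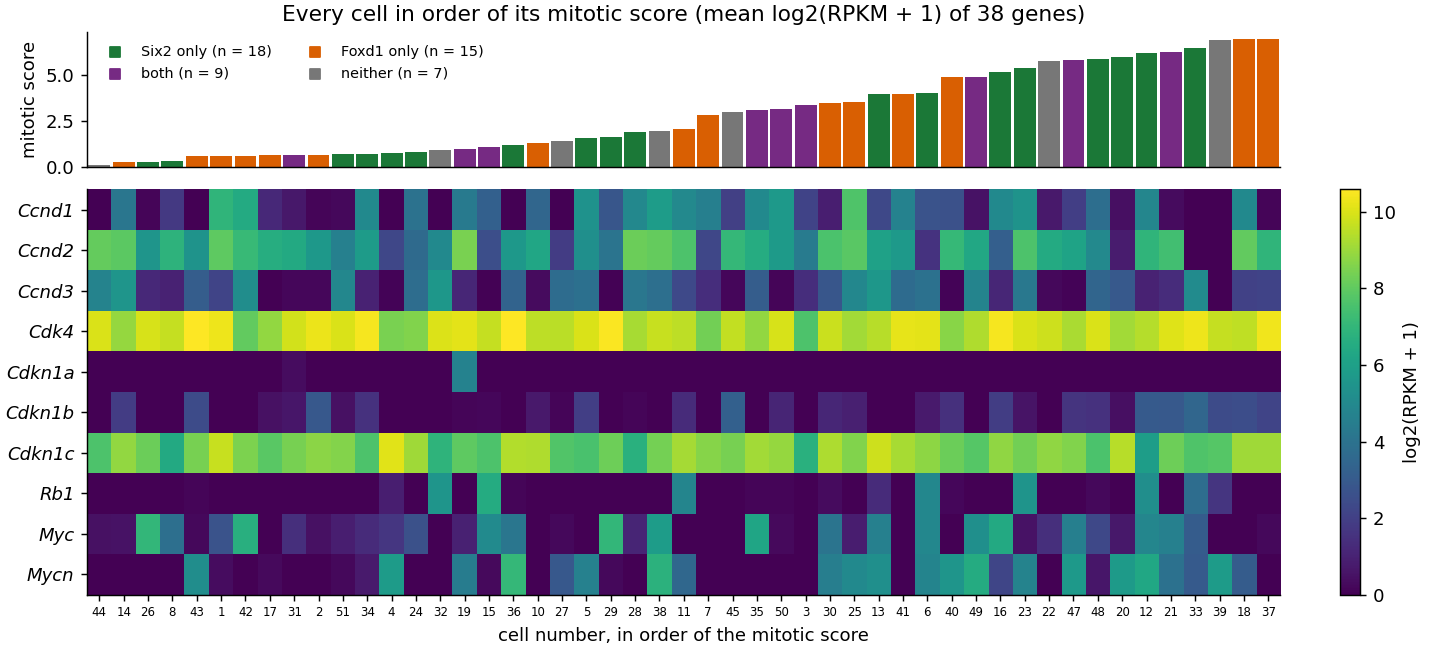
Each column is 1 cell in order of its mitotic score, which the upper bars show with the Six2 and Foxd1 status as colour; the lower panel gives log2(RPKM + 1) of the 8 genes with Ccnd1 and Cdkn1c. Cdk4 and Cdkn1c stay bright across all cells, Mycn and Cdkn1b are detected mostly toward the right, and the cells where Ccnd2 is darkest stand near the right edge.

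Mycn was detected in 3 of 16 low, 8 of 17 middle and 12 of 16 high cells. Its median was 0, 0.204 and 20.0 RPKM in these cells, and its highest value was 55.8, 130 and 91.6 RPKM. The ranges overlapped, and 3 high cells were listed at 0. The difference of mean log2(RPKM + 1), high minus low, was 2.57, and 1.41 with cells split into parts of equal size, 1.08 with a pseudocount of 10 and 4.12 with a pseudocount of 0.1. After removal of the linear trend with genes detected from both the levels and the score it was 0.50, short of 2-fold. The Spearman correlation of Mycn with the score was 0.38 over 49 cells, 0.41 with the number of genes detected, and 0.17 with the score given genes detected. Mycn and Cdkn1b were the 2 of 8 members with a correlation of 0.3 or more, which 7.94% of all genes had.

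The same order was seen for Mycn within the Six2-only cells, with detection in 1 of 6 low, 3 of 5 middle and 6 of 7 high cells. In Foxd1-only cells it was detected in 1 of 6, 3 of 5 and 2 of 4. In cells with both genes it was detected in 1 of 2, 0 of 4 and 3 of 3, and in cells with neither in 0 of 2, 2 of 3 and 1 of 2. Outside the Six2-only cells detection thus did not rise at each step. These splits by status were made after the pooled values were seen and were not corrected for genes detected. Of the 38 mitotic genes 38 had a positive Spearman correlation with Mycn, as 69.5% of all genes in 10 or more cells did, and 16 had 0.3 or more, led by the S and G2 cyclin gene Ccna2 at 0.43 and the topoisomerase gene Top2a at 0.43, where 6.65% of all genes in 10 or more cells reached 0.3. The 38 genes make up the mitotic score, so these counts restate the correlation of Mycn with the score. That was 0.38, and 0.17 given genes detected, for which the counts were not corrected. Of the list, Nek2 was detected in only 8 cells. With Myc 20 of the 38 were positive, against 59.7% of all genes, and 0 reached 0.3, where 4.38% of all genes did.

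The sequence before the start of Mycn is shown because it holds several words of the consensus of the E2F factors, which act in the same G1 to S step. The words searched on both strands were TTTCCCGC, TTTCGCGC, TTTGCCGC and TTTGGCGC. In the 250 bases before the annotated start (RefSeq, GRCm38.p6, chr12:12941837-12942086, minus strand, written 5′ to 3′ along the gene) TTTGGCGC occurs with first bases 183 and 168 bases before the start, and TTTCGCGC is read on the other strand across the bases that begin 179 before the start, overlapping the first. Capitals mark all 3:
Mycn: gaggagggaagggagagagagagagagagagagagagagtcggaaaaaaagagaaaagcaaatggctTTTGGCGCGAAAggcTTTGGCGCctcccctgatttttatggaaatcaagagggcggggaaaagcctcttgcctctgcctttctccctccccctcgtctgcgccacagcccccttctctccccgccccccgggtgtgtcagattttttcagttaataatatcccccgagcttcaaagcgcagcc
At least 1 of these words is in 1.86% of the 32851 windows, and 3 or more are in 4 windows (0.0122%). The windows of Cdkn1b, Cdkn1a and Ccnd3 held neither these words nor CACGTG, which says only that the letters are not in those windows.

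Cdkn1b leaned the same way as Mycn. It was detected in 4 of 16 low, 5 of 17 middle and 10 of 16 high cells, with medians of 0.0558, 0.108 and 1.94 RPKM and highest values of 6.49, 8.44 and 10.4 RPKM. The difference of 0.90 was short of 2-fold, and all values were low; it was 1.99 with a pseudocount of 0.1, 1.48 with medians and 0.21 with a pseudocount of 10. Its Spearman correlation with the score was 0.40, the highest of the 8 genes, and 0.31 given genes detected. It was 0.14 with the replication score. In Six2-only cells Cdkn1b was detected in 1 of 6 low, 1 of 5 middle and 4 of 7 high cells, and in Foxd1-only cells in 3 of 6, 2 of 5 and 3 of 4.

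Ccnd2 had a lower mean, but not a lower median, in the high cells. Its medians were 70.4, 66.6 and 74.6 RPKM in low, middle and high cells, and its ranges 3.71 to 354, 2.68 to 293 and 0 to 266 RPKM. The difference of means on the log2 scale was -1.14, while the difference of medians was 0.11. Cells with Ccnd2 under 10 RPKM numbered 1 of 16 low, 3 of 17 middle and 5 of 16 high cells. With cells split into a lower and an upper part of equal size the difference was -0.53, with cells ranked by the number of mitotic genes detected it was -0.38, and with a pseudocount of 10 it was -0.58, all short of 2-fold. With the trend on genes detected removed it was -1.08, and with a pseudocount of 0.1 it was -1.63, both past 2-fold. The Spearman correlation with the score was -0.11, and -0.28 given genes detected.

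Rb1 was detected in 1 low, 3 middle and 5 high cells, with a difference of 0.93 and a Spearman correlation of 0.25. The difference was 1.66 with a pseudocount of 0.1, 0.42 with cells split into parts of equal size, 0.22 by the number of mitotic genes detected and 0.20 with the trend on genes detected removed. The remaining genes moved little with the score. High minus low, Cdk4 differed by 0.13, with medians of 995, 750 and 938 RPKM in low, middle and high cells. Myc differed by 0.49 and was detected in 8 of 16, 8 of 17 and 9 of 16 cells. Ccnd3 differed by -0.22 and was detected in 12 cells of each kind. Cdkn1a, with its 1 low cell, differed by -0.31. The Spearman correlations with the score were -0.016 for Cdk4, -0.025 for Myc and -0.047 for Ccnd3. Of the 25 genes of G1 control 6 were past 2-fold upward and 0 downward, beside 15.3% and 1.88% of all genes, among them Cks1b at 2.85, Skp2 at 2.08 and E2f5 at 1.89; Cks1b and Skp2 act together in the breakdown of the Cdkn1b protein. Of the 14 genes of the Myc network 1 was past 2-fold upward, Ruvbl2 at 1.37, and 2 were past it downward. These 2 were Fbxw7, whose product marks Myc protein for breakdown, at -1.81 and the Myc antagonist Mxi1 at -1.32. Other antagonist genes of the list, Mxd3, Mxd1 and Mnt, differed by 0.91, 0.79 and 0.65, and Mxd4 by -0.13, all short of 2-fold.

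**Figure D4:**
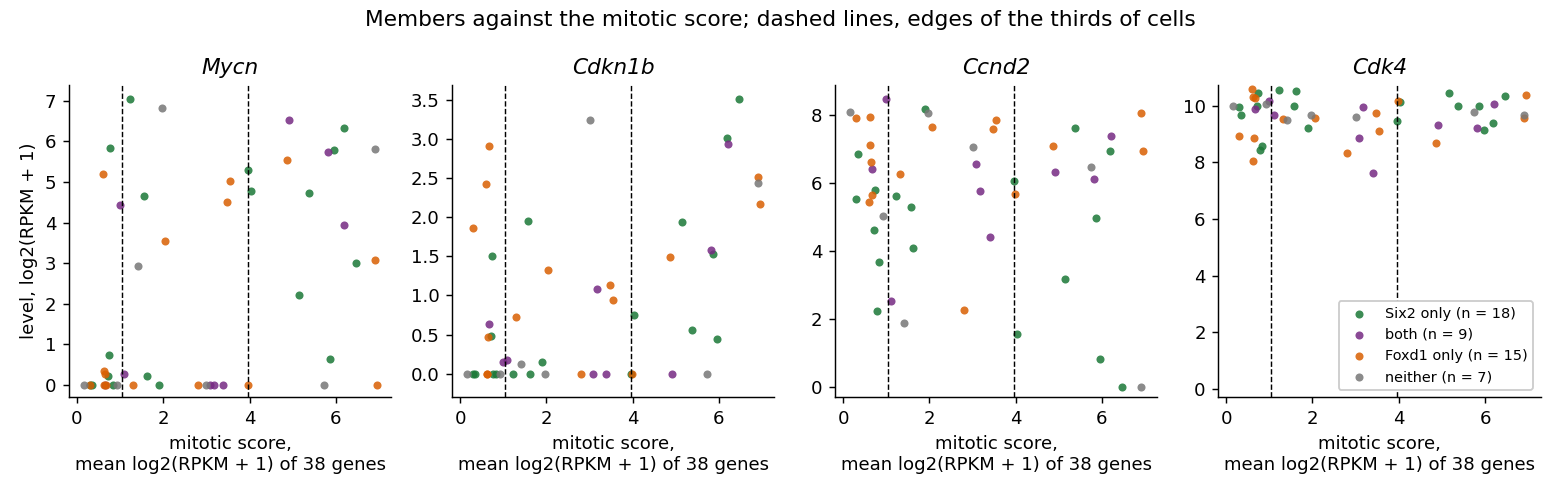
Levels of Mycn, Cdkn1b, Ccnd2 and Cdk4 on log2(RPKM + 1) axes against the mitotic score of the cell, with dashed lines at the edges of the low, middle and high cells; each point is 1 of 49 cells, coloured by Six2 and Foxd1 status. Cells with Mycn or Cdkn1b grow more frequent to the right, Ccnd2 is low in a few cells at the right, and Cdk4 is level throughout.

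For each member detected in 10 or more cells, the 3 genes with the most similar levels were taken by Spearman correlation over 49 cells among 8420 genes in 10 or more cells. For Myc they were the nucleolar genes Nop56 at 0.61 and Ncl at 0.56, both of the Myc target list, and 1500012F01Rik at 0.52, and Six2, at 0.51, had rank 5. For Mycn they were Akirin2 at 0.55, Bag2 at 0.53 and the centromere protein gene Cenpc1 at 0.53. For Ccnd2 they included Lpar1 and Nfe2l2, each at 0.53, and for Ccnd3 they were Zfp326 and Arpc4 at 0.53 and Prickle3 at 0.51. For Cdk4 they were Snrpd3 at 0.53, Raver1 at 0.50 and Chchd7 at 0.49, and for Cdkn1b Tmem85 at 0.61, the tubulin gene Tuba1b at 0.55 and the mitotic kinesin gene Kif14 at 0.55. Such genes are the extremes of 8420, and without cells 3 and 7 the first 3 kept 3 of the genes for Ccnd3, 2 for Ccnd2 and 1 each for Cdk4, Cdkn1b, Myc and Mycn.

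Nop56, a component of the particle that modifies ribosomal RNA, had a median of 354 RPKM (125 to 944) in the 16 cells with Myc at 10 RPKM or more, 198 RPKM (85.9 to 666) in the 9 cells with 1 to 10 RPKM, and 115 RPKM (0.254 to 378) in the 24 cells under 1 RPKM. Ncl, which encodes nucleolin, had medians of 144, 134 and 78.9 RPKM in the same cells. The ranges overlapped for both genes. In the same order the median number of genes detected was 5346, 5374 and 5125.5, and the median of Six2 was 39.0, 17.9 and 0.101 RPKM; the part of either in the levels of Nop56 and Ncl was not tested. Within the 18 Six2-only cells the Spearman correlation with Myc was 0.62 for Nop56 and 0.030 for Ncl, and in the 22 cells without Six2 it was 0.36 and 0.50, so Ncl did not follow Myc among Six2-only cells. These splits were chosen after the pooled values were seen. With Mycn the correlation was 0.32 for Nop56 and 0.098 for Ncl.

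**Figure D5:**
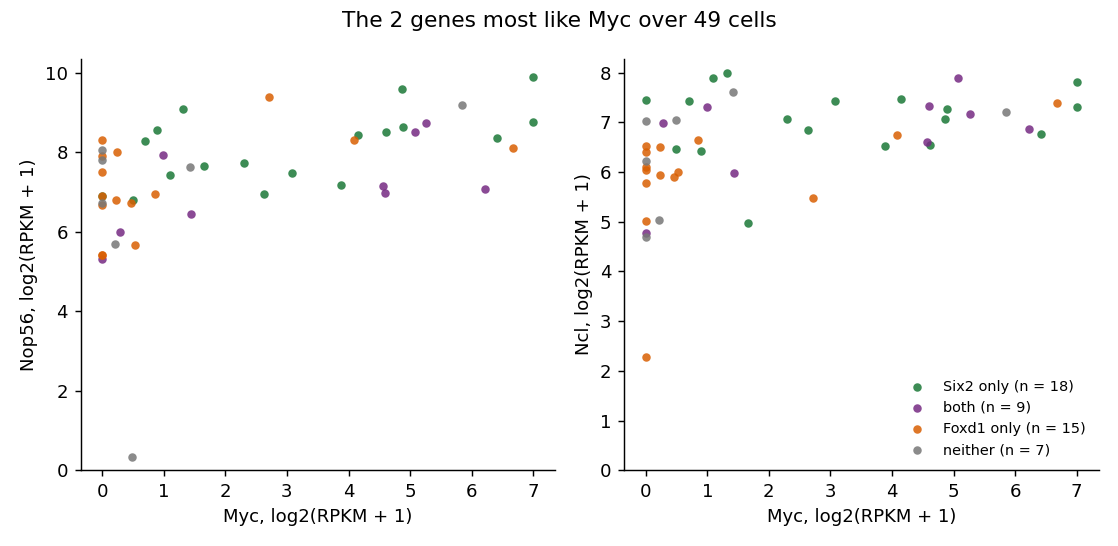
Levels of Nop56 and Ncl against Myc, all as log2(RPKM + 1), in 49 cells coloured by Six2 and Foxd1 status. Cells with Myc above 3 on this axis all lie at 6 or more for Nop56 and for Ncl, while cells with little Myc reach lower values of both genes.

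Over the 18 Myc target genes all 18 had a positive Spearman correlation with Myc, as 59.7% of all genes in 10 or more cells did, and 4 had 0.3 or more: Nop56, Ncl, the nucleophosmin gene Npm1 at 0.44 and Odc1, of polyamine synthesis, at 0.31. The median was 0.16, against 0.039 over all genes in 10 or more cells. With Mycn 15 of the 18 were positive, against 69.5% of all genes, 5 had 0.3 or more, and the median was 0.18 against 0.080 over all genes. The 5 were Polr1b at 0.35, Tfrc at 0.33, Ldha and Nop56 at 0.32 and Cad at 0.30, so only Nop56 of the list reached 0.3 with both. A positive sign with Myc was common in another list too, as 28 of the 31 DNA replication genes had it, though 0 of them reached 0.3. The targets were detected in a median of 44.5 cells, so they differ in detection from the genes in 10 or more cells. Their median difference was 0.69 toward the Six2-only cells, where Myc was higher too, and the part of either was not tested. These correlations are a description of 49 cells that are taken as 1 sample and differ in depth and cycle state.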

How the data were processed

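Single cells were captured on a Fluidigm C1 chip whose chambers were inspected by microscope, per the labels' protocols, which was the treatment of doublets; complementary DNA was amplified with SMARTer chemistry and libraries were made with Nextera XT, without strand or molecular identifiers. The deposited table gives RPKM from the authors, per the file headers. The submitters' processing notes name TopHat 1.4.1, DESeq and mm9 without role or order. The counter, the annotation and whether starts count from 0 or 1 are not given in the sources used. The table holds genes above 3 RPKM in at least 1 cell, which was checked on the values for all 13093 genes, so a gene low in every cell is not analysed here. The table holds no read totals. The table also holds a number of cells above 3 RPKM per gene, and 0 columns of values per cell were left unused.

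Cells were matched to columns by cell number, and none was filtered. Python 3.11.15 was used with numpy 2.4.6, pandas 2.3.3 and scipy 1.17.1. Computed here were detection at 1 RPKM with exact (Clopper-Pearson) 95% intervals, differences of mean log2(RPKM + 1), and Spearman correlations. The differences understate the change of low genes. Of these steps, only the differences and the correlations were tested on simulated data. How they behave with the many tied values of genes found in few cells was not tested. No p-values were computed, since the cells form 1 sample. Partial correlations use ranks with the trend on genes detected removed. The rule for named genes was: all members, Ccnd1 and Cdkn1c, Six2 and Foxd1, the 3 genes most like each member, up to 4 genes per list detected in most cells and those past 2-fold, and genes overlapping a member; names given beyond it (such as Max, Rbl1, Rbl2, Ccna2, Aen, Npm1 and Polr1b) were chosen after their values were seen, not every list gene past 2-fold is named, and 1 gene that the rule names is not reported here. Members and lists were chosen with earlier results of these data known. Alternatives were other detection limits, pseudocounts, filters, medians, status limits, cell splits, a correction for genes detected, and leaving out cells 3 and 7 or 25 and 27.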

Additional observations from a re-analysis of the deposited data

How the results depend on the processing

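The number of members past 2-fold between Six2-only and Foxd1-only cells was 3. It was 1 (Ccnd2) with a pseudocount of 10, 2 without cells 3 and 7, and 4 with a pseudocount of 0.1 (Rb1 added), with medians (Ccnd3 added) and with status set at 0.1 RPKM, where Rb1 and Ccnd3 passed and Ccnd2 did not. The number past 2-fold by mitotic score was 2 and became 4 with a pseudocount of 0.1, where Rb1 and Cdkn1b passed, and 1 with a pseudocount of 10, with the cells split in equal parts, with the number of mitotic genes detected as the score, and with the trend with genes detected removed. The share of all genes past 2-fold moved too. By status it was 33.0% with a pseudocount of 0.1, 2.89% with 10 and 20.4% with medians. It was 16.9% without cells 3 and 7 and 17.7% with status set at 0.1 RPKM. By mitotic score it was 34.7% with a pseudocount of 0.1, 3.17% with 10 and 22.2% with medians. It was 10.1% with equal parts, 17.9% with the number of mitotic genes detected and 11.8% with the trend removed. The mitotic difference of Ccnd2 changed sign with medians, to 0.11. Of the other comparisons of single members and counts with an alternative, 166 kept their direction and side of the limit or moved within their spread, 9 passed a limit they had missed, 12 no longer passed and 8 moved. The 166 are not all separate checks. A filter on mean RPKM leaves the value of a single member as it was. Leaving out cells 3 and 7 or 25 and 27 gave the same high minus low values, as these are all middle cells. Detection of Cdkn1b depended most on the limit, with 30 cells at 0.1 RPKM and 1 cell at 10 RPKM. The cause of these changes was not tested. Depth limits what a 0 means in 1 cell, most in cells 3 and 7. Cells of unnamed embryos, taken as 1 sample, give no measure of the spread between animals. No paired analysis was possible because all cells form 1 group.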
